A study of Homo sapiens with 4 samples.

Results

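Natural antisense RNAs are made from the DNA strand opposite to that of another gene, and their genes are named after that gene with the ending -AS and a digit. This account covers the 263 genes with such a name and a mean of at least 1 FPKM over 4 libraries (an FPKM is a count of fragments divided by transcript length and library size), out of 494 genes with such a name and 20329 genes listed. They were selected on their name and on their mean FPKM, which includes the knockdown libraries compared below. This choice was made with earlier results of these data known. The gene before the ending is called the partner here. The libraries came from BM1 and LM2 cells, bone and lung metastasis derivatives of the triple-negative breast cancer line MDA-MB-231. In each line, cells that stably expressed a non-specific shRNA (control) were set against cells that stably expressed an shRNA to hnRNPM (knockdown), both introduced with lentiviral vectors. Each line and treatment gave 1 library, no label names a second culture, and a stable line can differ from its control in more than the targeted RNA. The series concerns splicing control by hnRNPM, an RNA-binding protein of the nucleus, with ESRP1 in the epithelial-mesenchymal transition.

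Antisense genes can start close to their partner and be read away from it, lie within it, or run into its end. Many of their RNAs stay in the nucleus and are present at low levels. Some are known to act on the partner's transcription or RNA, while for most no function is established. HNRNPM, the target of the shRNA, was listed at 171 FPKM in BM1 control, 28.4 in BM1 knockdown, 132 in LM2 control and 20.3 in LM2 knockdown. Both knockdown libraries were thus at 16.6% and 15.4% of their control.

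Stranded libraries of polyadenylated RNA were made, per the labels' protocols, but the sources used here give no strand setting for the counting. Without counting by strand, fragments of an antisense gene and an overlapping partner cannot be told apart. This limit touches every pair below whose exons overlap. The low values gave an estimate of 22781123 to 41503272 fragments a library, with the deepest library 1.82 times the shallowest, and steps of 0.5 of that size fitted as well, so the absolute depth is uncertain. The line markers VIM, CD44, EGFR and AXL were listed at 31.4 to 2354 FPKM, ERBB2 was listed at 13.5 to 21.9, and ESR1, PGR, PTPRC, PECAM1 and DCN were not listed. COL1A1 was listed at 1.94 (BM1 control), 11.1 (BM1 knockdown), 29.2 (LM2 control) and 74.2 FPKM (LM2 knockdown), and the epithelial genes CDH1, EPCAM, KRT8 and KRT18 were also higher in each knockdown library than in its control. The part of these differences in the results below was not tested.

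The antisense genes were low and short. Their median over the 4-library means was 2.78 FPKM, against 13.2 for the tested partners and 9.15 for the 13928 genes with a mean of at least 1 FPKM. The partner exceeded the antisense gene in most pairs, by a median of 3.54 times, and the antisense gene had the higher mean in 28 of 232 pairs. In GENCODE 29, 189 of the 259 genes matched by ID had the type antisense, 36 processed transcript, 23 lincRNA and 4 protein-coding. Their longest transcripts had a median of 1889 bases and 3 exons, against 3229 bases and 7 exons for the tested genes. The minimum on the mean was met in all 4 libraries by 185 of the 263 genes. The mean over the controls was under 1 FPKM in 17 genes and that over the knockdowns in 27. These genes met the minimum only through the other treatment. ARAP1-AS2, DLGAP1-AS2 and WDFY3-AS2 lay just above it, at a mean of 1.01 FPKM each. SCOC-AS1 (0.996), GAS6-AS1 (0.995) and TSC22D1-AS1 (0.984) lay just below it and are not counted. HOXA-AS2, LEF1-AS1 and SOX9-AS1 were also below it.

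A partner was listed for 253 of the 263 genes and had itself a mean of at least 1 FPKM in 232 pairs, with 225 distinct partners. In 81 of these pairs the genes overlapped at their starts, so that each start lay inside the other gene. In 31 they were read away from each other without overlap. The ends overlapped in 54 pairs, the antisense gene lay inside its partner in 53 and enclosed it in 11, and HNRNPU-AS1 and 1 of the 2 entries of DHRS4-AS1 lay on the partner's strand. Starts on opposite strands were within 1000 bases in 76 pairs, called a shared promoter region here. These were pairs that overlapped at their starts, pairs read away from each other without overlap, and 1 gene inside its partner. By GENCODE 29 exons, 184 of 229 pairs shared at least 1 exonic base, with a median of 16.9% of the antisense exon bases.

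Knockdown and control were compared on log2(FPKM + 1) by limma, fitted to all 4 libraries with cell line and treatment as terms. The fit has 1 residual degree of freedom, and p-values were adjusted over the 13928 genes. An adjusted p under 0.05 is named a call. Since no label gives separate cultures within a line and treatment, these p-values rest on 4 libraries only. The spread behind them is the gap between the BM1 and LM2 changes, drawn toward a value shared by all genes. It is not a spread between cultures, and the fit favours genes that changed alike in both lines. Of the 263 antisense genes, 14 were called, 6 higher and 8 lower in knockdown, which is 5.32% against a background of 5.47% of all genes tested (2.71% higher and 2.76% lower). The antisense genes were thus called about as often as other genes. Of the called genes, MAMDC2-AS1, PLCE1-AS1 and LMLN-AS1 met the minimum on the mean only through knockdown, and HAS2-AS1 and HHIP-AS1 only through control. Of the 225 partners, 19 were called, 7 higher and 12 lower, which is 8.44% against the same background of 5.47%. The 14 calls became 0 with a pseudocount of 0.1, without the minimum on the mean, with quantile normalization, without the term for cell line, and without any 1 of the 4 libraries. Over all genes the calls likewise became 27 with a pseudocount of 0.1 and 0 in the other settings. In the first 3 of these limma fits, 59 to 69 antisense genes had an unadjusted p under 0.05, beside 18.4% to 23.4% of all genes in the same fits.

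CYP1B1-AS1 had the largest average rise. Its partner CYP1B1 encodes a cytochrome P450 that oxidises oestrogens and aromatic hydrocarbons and is a classical target of the aryl hydrocarbon receptor. The RefSeq promoter window of CYP1B1-AS1 (250 bases before to 50 after the start) is printed because the pair moved together. The window lies on the plus strand of GRCh38.p14, chr2:38130855-38131154, and holds 3 CpG dinucleotides. Its start was not matched to the start of CYP1B1-AS1 given below, which is on another genome build. Capitals in this and the later windows mark matches on either strand to 6 motifs, which may overlap each other. The motifs were GGGCGG (the SP1 box), GCGTG (the core of the aryl hydrocarbon receptor site), CCGGAAG for ETS factors, TGANTCA for AP-1, the CCAAT box and the TATAAA box.
CYP1B1-AS1: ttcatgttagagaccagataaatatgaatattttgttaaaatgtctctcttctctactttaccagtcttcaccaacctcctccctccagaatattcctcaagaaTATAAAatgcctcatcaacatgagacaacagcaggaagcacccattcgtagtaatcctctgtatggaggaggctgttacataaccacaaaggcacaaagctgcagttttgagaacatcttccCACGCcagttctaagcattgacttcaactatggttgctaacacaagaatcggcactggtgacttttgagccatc
The window has 1 TATAAA and 1 GCGTG on the opposite strand (CACGC). Among all 35116 RefSeq windows of this length, GCGTG was found in 36.5% and TATAAA in 11.5%, and among the 196 windows of 161 matched antisense genes in 44.4% and 8.67%. Among the windows of all tested genes of the table the shares were 48.7% and 5.90%. A match describes letters only.

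In the table, whose coordinates are on GRCh37 per the submitters' processing notes, CYP1B1-AS1 lies on the plus strand of chromosome 2, from 38300590 to 38458793. It overlaps CYP1B1 by 36455 bases at their starts, so that each start lies inside the other gene. CYP1B1-AS1 was listed at 0.379 FPKM in BM1 control and 13.5 in BM1 knockdown, and at 5.17 in LM2 control and 34.7 in LM2 knockdown. Both knockdown libraries were above both controls, and the LM2 control was well above the BM1 control. The change was 3.40 in BM1 and 2.53 in LM2 on the log2 scale, with an average of 2.97 ± 0.29 (SE) and an adjusted p of 0.00318 by limma. Leaving out 1 library, which takes the line term with it, gave averages from 1.88 (without BM1 control) to 4.05 (without LM2 control). CYP1B1 was listed at 1.13 FPKM in BM1 control, 50.006 in BM1 knockdown, 16.6 in LM2 control and 60.2 in LM2 knockdown. It was also called higher, by an average of 3.19 ± 0.53 (SE), with a limma adjusted p of 0.0174, and its averages without 1 library ran from 1.67 (without BM1 control) to 4.71 (without LM2 control).

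MAMDC2-AS1 and SMC5-AS1 are neighbours on the minus strand of chromosome 9, and both rose. MAMDC2 encodes a secreted protein with MAM domains, and SMC5 encodes a subunit of the SMC5/6 complex, which acts in DNA repair. MAMDC2-AS1 was listed at 0.0665 FPKM in BM1 control, 0.842 in BM1 knockdown, 1.59 in LM2 control and 8.65 in LM2 knockdown. SMC5-AS1 was listed at 0.203, 1.27, 2.21 and 13.6 FPKM in the same order. In both genes each knockdown was above its own control, but the LM2 control was above the BM1 knockdown, so the groups overlapped. The averages were 1.34 ± 0.31 (SE) for MAMDC2-AS1, with a limma adjusted p of 0.0449, and 1.55 ± 0.33 (SE) for SMC5-AS1, with 0.035. Within BM1 alone the changes were 0.79 and 0.92, and within LM2 1.90 and 2.18. Leaving out 1 library also drops the line term, and gave averages from 0.15 and 0.21 (without LM2 knockdown) to 2.54 and 2.89 (without BM1 knockdown).

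The partner that SMC5-AS1 is named after was not called, whereas the neighbour it runs into was. SMC5-AS1 (72808913 to 72873782) starts 96 bases from SMC5 and ends inside MAMDC2 (72658497 to 72841886). MAMDC2 was listed at 1.56 FPKM in BM1 control, 18.6 in BM1 knockdown, 34.1 in LM2 control and 231 in LM2 knockdown. It was called higher by 2.83 ± 0.25 (SE), with a limma adjusted p of 0.00304, and by 0.94 without BM1 control and 4.72 without LM2 control. SMC5 was listed at 2.45, 7.34, 11.4 and 13.9 FPKM, and its average of 0.77 ± 0.30 (SE) did not pass (adjusted p of 0.165 by limma). All 4 of these genes had the same order of libraries, lowest in BM1 control and highest in LM2 knockdown, and so had COL1A1. The window of SMC5 is shown because the table starts SMC5-AS1 so near to it on the other strand. It lies on the plus strand of GRCh38.p14, chr9:70258728-70259027, with 37 CpG dinucleotides.
SMC5: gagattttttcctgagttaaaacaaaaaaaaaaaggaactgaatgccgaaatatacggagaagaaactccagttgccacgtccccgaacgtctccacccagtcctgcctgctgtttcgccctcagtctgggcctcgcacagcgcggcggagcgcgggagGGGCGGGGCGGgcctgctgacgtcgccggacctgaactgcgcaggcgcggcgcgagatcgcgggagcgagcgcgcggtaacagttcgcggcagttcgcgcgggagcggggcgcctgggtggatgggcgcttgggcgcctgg
Here capitals mark 2 copies of GGGCGG that overlap by 1 base, a motif found in 45.0% of all windows.

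PLCE1-AS1, inside the phospholipase gene PLCE1, was listed at 0.232 FPKM in BM1 control, 5.70 in BM1 knockdown, 1.09 in LM2 control and 3.87 in LM2 knockdown. Both knockdowns exceeded both controls. The average rise was 1.83 ± 0.32 (SE), with a limma adjusted p of 0.0207, while PLCE1 itself (3.03, 5.45, 1.37 and 1.997 FPKM) was not called. LMLN-AS1, inside the metalloprotease gene LMLN, was listed at 0.5503 and 0.873 FPKM in the BM1 and LM2 controls and at 2.61 in each knockdown. It rose by 1.08 ± 0.25 (SE), with a limma adjusted p of 0.0462, and LMLN was not called (1.20, 4.14, 1.87 and 2.87 FPKM).

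SVIL-AS1 was the called gene whose partner went the other way in both lines. SVIL encodes supervillin, a membrane-associated actin-binding protein, and the genes overlap at their ends on chromosome 10. SVIL-AS1 was listed at 11.5 FPKM in BM1 control, 21.9 in BM1 knockdown, 16.1 in LM2 control and 44.8 in LM2 knockdown. Both knockdowns were above both controls, and the rise averaged 1.15 ± 0.27 (SE), with a limma adjusted p of 0.0448 (0.65 without LM2 knockdown). SVIL was listed at 11.6, 8.83, 20.8 and 19.5 FPKM, a difference of -0.35 in BM1 and -0.09 in LM2 that did not pass (adjusted p of 0.632 by limma). GENCODE 29 types SVIL-AS1 as a transcribed unprocessed pseudogene, so reads shared with the copied sequence make its value uncertain.

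**Figure D1:**
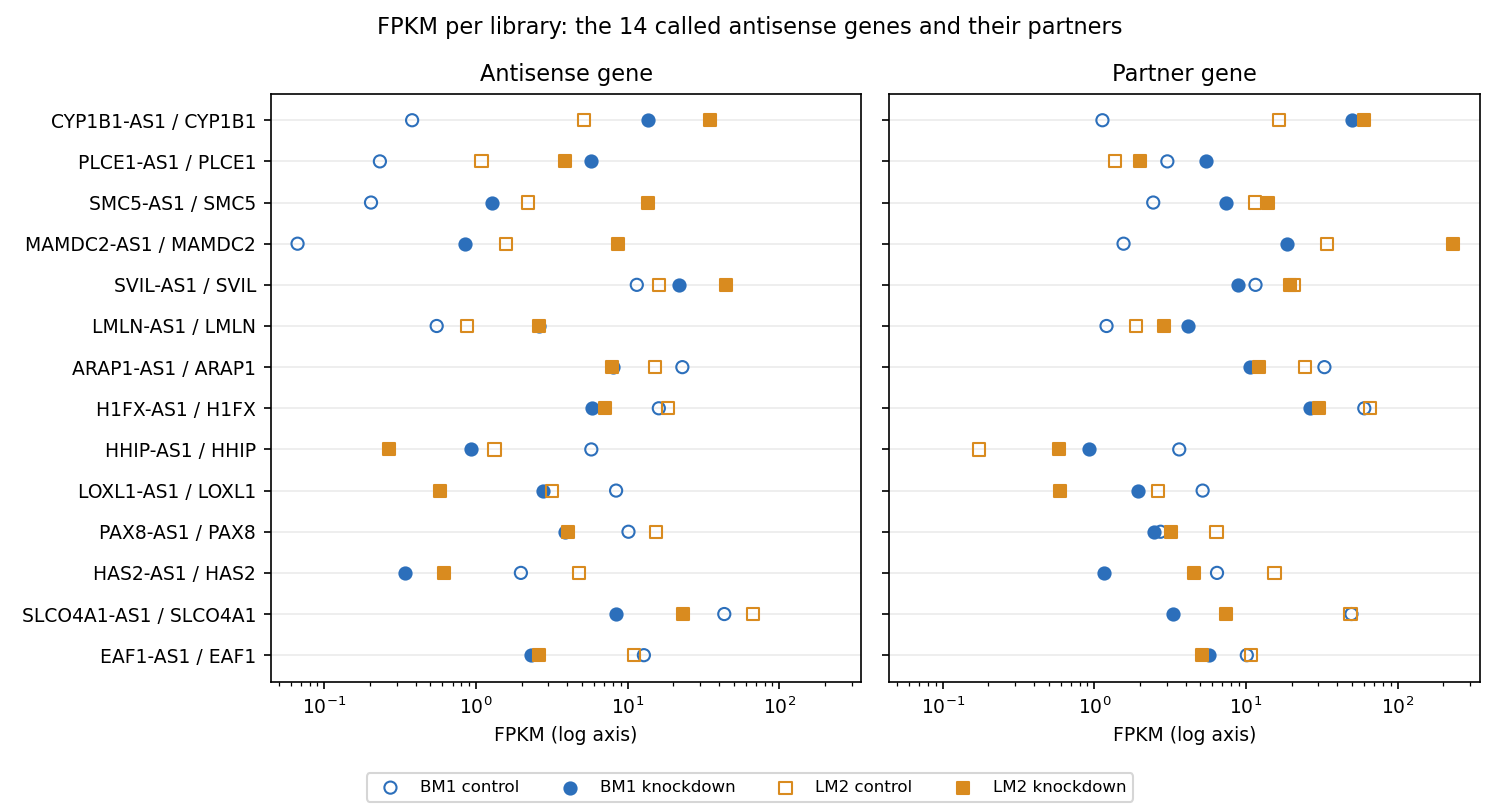
FPKM on a log axis in each of the 4 libraries for the 14 called antisense genes (left) and their partners (right), 1 point per library, with open symbols for control and filled symbols for knockdown. Each called gene has both knockdown points on the same side of their own line's control, a pattern that the fit favours. MAMDC2 and SMC5-AS1 are highest in LM2 knockdown (231 and 13.6 FPKM).

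Among the 8 genes called lower, EAF1-AS1 had the lowest average. EAF1 encodes a factor that binds ELL, an elongation factor of RNA polymerase II. EAF1-AS1 was listed at 12.8 FPKM in BM1 control, 2.30 in BM1 knockdown, 11.0 in LM2 control and 2.61 in LM2 knockdown. Both controls lay above both knockdowns and close to each other. EAF1-AS1 fell by 1.90 on the log2 scale (SE 0.26, limma adjusted p of 0.0102). EAF1 was listed at 10.1, 5.68, 10.8 and 5.13 FPKM and did not pass (adjusted p of 0.0894 by limma). The end of METTL6 (11.4, 8.38, 9.52 and 6.70 FPKM) overlaps EAF1-AS1 on the same strand.

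SLCO4A1-AS1 lies inside SLCO4A1, which encodes an organic anion transporter. It was listed at 43.4 FPKM in BM1 control, 8.36 in BM1 knockdown, 67.2 in LM2 control and 23.1 in LM2 knockdown. Both controls were above both knockdowns. SLCO4A1-AS1 fell by 1.87 (log2, SE 0.28, limma adjusted p of 0.0129), and its average was -1.19 without BM1 knockdown. SLCO4A1 was listed at 49.6, 3.28, 48.9 and 7.33 FPKM and fell by 3.07 (log2, SE 0.30, limma adjusted p of 0.00318).

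HAS2-AS1 overlaps the start of HAS2, which encodes a hyaluronan synthase. HAS2-AS1 was listed at 1.98 FPKM in BM1 control, 0.341 in BM1 knockdown, 4.76 in LM2 control and 0.619 in LM2 knockdown, with both controls above both knockdowns. It fell by 1.49 (log2, SE 0.28, limma adjusted p of 0.023). HAS2 (6.44, 1.16, 15.4 and 4.51 FPKM) fell by 1.68 (log2, SE 0.25, limma adjusted p of 0.0129). The average of HAS2-AS1 was -1.01 without LM2 control, and that of HAS2 -1.004 without BM1 knockdown.

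LOXL1-AS1 overlaps the start of LOXL1, which encodes a lysyl oxidase that crosslinks elastin. It was listed at 8.39 FPKM in BM1 control, 2.77 in BM1 knockdown, 3.19 in LM2 control and 0.582 in LM2 knockdown. Each control was above its own knockdown and above the other line's. LOXL1-AS1 fell by 1.36 (log2, SE 0.25, limma adjusted p of 0.0228), and LOXL1 (5.18, 1.95, 2.65 and 0.594 FPKM) by 1.13 (log2, SE 0.25, limma adjusted p of 0.0402). Without LM2 knockdown the average of LOXL1-AS1 was -0.73 and that of LOXL1 -0.68. The promoter of LOXL1-AS1 is printed as an example of a CpG-rich start in a pair that fell together. RefSeq gives it several starts, and the window nearest to the LOXL1 start, 1324 bases from it, lies on the minus strand of GRCh38.p14, chr15:73927737-73928036, with 40 CpG dinucleotides.
LOXL1-AS1: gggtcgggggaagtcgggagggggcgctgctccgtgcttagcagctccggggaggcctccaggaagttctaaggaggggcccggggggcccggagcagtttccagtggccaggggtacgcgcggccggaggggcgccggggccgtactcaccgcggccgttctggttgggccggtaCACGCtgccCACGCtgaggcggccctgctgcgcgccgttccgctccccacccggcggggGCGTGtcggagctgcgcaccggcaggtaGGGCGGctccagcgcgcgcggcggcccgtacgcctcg
It holds GCGTG 3 times over both strands and GGGCGG once, and no TATAAA.

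H1FX-AS1 and ARAP1-AS1 were also called lower together with their partners. H1FX encodes a linker histone, and ARAP1 a GTPase-activating protein. H1FX-AS1 was listed at 16.0, 5.85, 18.4 and 7.07 FPKM (BM1 control, BM1 knockdown, LM2 control, LM2 knockdown), and H1FX at 60.3, 26.4, 65.8 and 30.3. The antisense gene fell by 1.29 (log2, SE 0.25, limma adjusted p of 0.0266) and H1FX by 1.13 (log2, SE 0.25, adjusted p of 0.0397). ARAP1-AS1, of whose exon bases 99.2% lie in ARAP1 exons, was listed at 22.9, 8.05, 15.2 and 7.87 FPKM, and ARAP1 at 32.9, 10.7, 24.4 and 12.1. ARAP1-AS1 fell by 1.14 (log2, SE 0.27, limma adjusted p of 0.0456), and ARAP1 by 1.25 (log2, SE 0.27, adjusted p of 0.0367).

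PAX8-AS1 and HHIP-AS1 were called while their partners were not. PAX8 encodes a paired-box transcription factor, and HHIP an inhibitor that binds hedgehog ligands. PAX8-AS1 was listed at 10.1 FPKM in BM1 control, 3.87 in BM1 knockdown, 15.3 in LM2 control and 4.05 in LM2 knockdown, and fell by 1.44 (log2, SE 0.26, limma adjusted p of 0.0224). PAX8 was listed at 2.73, 2.47, 6.39 and 3.22 FPKM. HHIP-AS1 was listed at 5.76 FPKM in BM1 control, 0.9195 in BM1 knockdown, 1.32 in LM2 control and 0.268 in LM2 knockdown, and fell by 1.34 (log2, SE 0.30, limma adjusted p of 0.0391). Without BM1 control its average was -0.58, and without LM2 control -2.11. In HHIP-AS1 and PAX8-AS1 both controls were above both knockdowns. HHIP, at 3.63, 0.928, 0.174 and 0.586 FPKM in the same order of libraries, had opposite signs in the 2 lines.

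The HHIP promoter is printed because RefSeq starts HHIP-AS1 137 bases away on the other strand, so that the windows of the 2 genes overlap. It lies on the plus strand of GRCh38.p14, chr4:144645906-144646205, with 36 CpG dinucleotides.
HHIP: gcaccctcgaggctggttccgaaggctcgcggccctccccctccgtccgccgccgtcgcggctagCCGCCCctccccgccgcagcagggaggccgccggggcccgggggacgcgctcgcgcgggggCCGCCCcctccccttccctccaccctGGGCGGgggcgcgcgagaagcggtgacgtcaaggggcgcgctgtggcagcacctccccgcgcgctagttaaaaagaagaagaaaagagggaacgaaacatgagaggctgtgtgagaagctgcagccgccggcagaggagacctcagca
The window holds GGGCGG 3 times over both strands. GGGCGG was present in 60.4% of the windows of antisense genes that share a promoter region with their partner, in 46.6% of those in other pairs, and in 66.4% of the windows of all tested genes.

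TGFB2-AS1 gives the case of a pair without overlap. TGFB2 encodes transforming growth factor beta 2, a secreted ligand and inducer of the epithelial-mesenchymal transition. TGFB2-AS1 was listed at 1.09 FPKM in BM1 control, 3.83 in BM1 knockdown, 1.73 in LM2 control and 3.52 in LM2 knockdown. Both knockdowns were above both controls, and the difference of 0.97 ± 0.26 (SE) did not pass (adjusted p of 0.0689 by limma). TGFB2 was listed at 6.64, 27.3, 13.5 and 34.8 FPKM and was called higher by 1.60 ± 0.27 (SE), with a limma adjusted p of 0.0178. The genes lie 556 bases apart on chromosome 1 in the table and share no exonic base in GENCODE 29. The TGFB2 window is shown as that of the partner called, on the plus strand of GRCh38.p14, chr1:218345086-218345385, with 14 CpG dinucleotides.
TGFB2: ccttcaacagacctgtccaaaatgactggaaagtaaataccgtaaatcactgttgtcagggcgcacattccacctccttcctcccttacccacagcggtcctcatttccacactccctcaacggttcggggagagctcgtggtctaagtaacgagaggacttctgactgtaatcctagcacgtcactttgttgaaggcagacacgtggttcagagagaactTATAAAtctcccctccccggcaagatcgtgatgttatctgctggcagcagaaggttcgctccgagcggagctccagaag
It has 1 TATAAA and none of the other motifs searched.

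Within a line there was no replicate, so genes were counted past a 2-fold difference on the log2(FPKM + 1) scale, without a test. In BM1, 39 antisense genes passed it, 18 higher and 21 lower, against 16.3% of all genes tested (10.1% higher and 6.20% lower). In LM2, 21 passed it, 9 higher and 12 lower, against a background of 8.06% (3.83% higher and 4.24% lower). The antisense genes' shares were 14.8% and 7.98%, near the background. At least 2-fold in both lines and lower were 6 antisense genes (background 1.95%), and higher were 2 (background 1.92%). The median change of the antisense genes was -0.03 in BM1 and -0.13 in LM2, against 0.00 and -0.04 for all genes tested.

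Both controls were above both knockdowns in 76 antisense genes, or 28.9%, against 22.6% of all genes tested. Both knockdowns were above both controls in 44, or 16.7%, against a background of 21.8%. The other 780 tested genes of GENCODE 29 type antisense, named otherwise, showed 30.0% and 17.4%. Signs were opposite in the 2 lines for 85 antisense genes, or 32.3%, against 30.9% of all genes tested. Across the 263 genes the BM1 and LM2 changes had a Pearson r of 0.55, as they had across all genes tested.

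**Figure D2:**
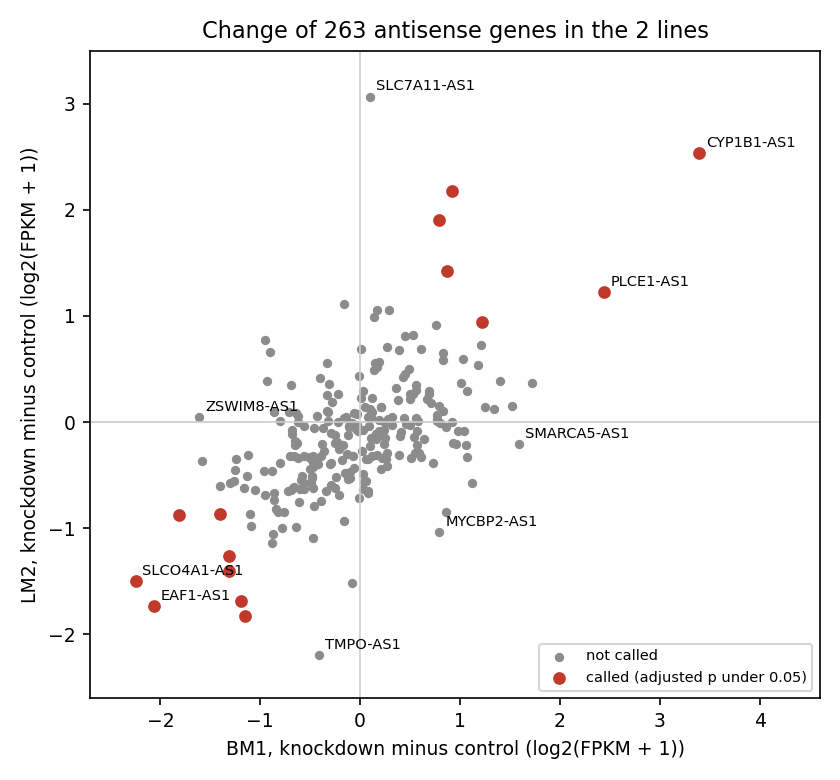
Knockdown minus control of each of the 263 antisense genes on the log2(FPKM + 1) scale in BM1 (horizontal) and LM2 (vertical), 1 point per gene, with the 14 called genes in red. The called genes lie in the upper right and lower left, a position that the fit favours. SLC7A11-AS1 lies high in LM2 only (0.10 in BM1 and 3.07 in LM2).

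Some large changes were seen in 1 line. SLC7A11 encodes the cystine transporter of the xCT system, and TMPO a protein of the nuclear lamina. SLC7A11-AS1 was listed at 1.43 FPKM in BM1 control, 1.60 in BM1 knockdown, 0.774 in LM2 control and 13.9 in LM2 knockdown. Its partner differed mainly in the other line, at 4.45, 31.5, 16.6 and 27.7 FPKM, and neither was called (limma adjusted p of 0.131 and 0.0525). TMPO-AS1 was listed at 6.67, 4.74, 14.5 and 2.39 FPKM (limma adjusted p of 0.0891), beside TMPO at 88.7, 89.8, 77.1 and 42.4. ZFPM2-AS1 (3.53, 14.0, 8.37 and 11.1 FPKM) was not called either (limma adjusted p of 0.109). HIF1A-AS2 was highest in BM1 knockdown (0.620, 3.64, 0.446 and 0.601 FPKM), with HIF1A, the oxygen-regulated transcription factor gene, at 54.7, 126, 99.5 and 157. HIF1A-AS2 met the minimum on the mean only through BM1 knockdown, so its high value there is no separate support.

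Opposite changes were largest in 6 genes. SMARCA5-AS1 was listed at 4.54 FPKM in BM1 control, 15.7 in BM1 knockdown, 12.2 in LM2 control and 10.4 in LM2 knockdown, and SMARCA5, a chromatin remodelling ATPase gene, at 11.4, 33.7, 19.6 and 24.8. MYCBP2-AS1 was at 3.27, 6.398, 7.21 and 2.99 FPKM and MYCBP2, a ubiquitin ligase gene, at 6.50, 10.9, 7.50 and 5.74. TAF1A-AS1 was at 0.567, 1.85, 1.61 and 0.447 FPKM. These 3 differed upwards in BM1 and downwards in LM2. The reverse held for ZSWIM8-AS1 (3.09, 0.342, 2.05 and 2.14 FPKM), SEMA3F-AS1 (4.31, 1.85, 1.95 and 3.67) and A1BG-AS1 (1.77, 0.431, 1.30 and 2.92). Their partners ZSWIM8, SEMA3F and A1BG had positive differences in both lines. None of the 6 was called, at limma adjusted p of 0.24 to 0.995. The fit counts a difference between the lines as spread, so it disfavours such genes.

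The changes of antisense genes and partners moved together across pairs. Over 232 pairs Pearson's r was 0.62 in BM1 and 0.61 in LM2 (Spearman 0.57 and 0.56), with the same sign in 160 pairs (69.0%) and 161 pairs (69.4%). The same sign was seen in 69.1% and 62.8% of 2831 other overlapping opposite-strand pairs of tested genes. It was seen in 58.6% and 51.7% of antisense genes set beside the nearest other tested gene that does not overlap them. These values describe pairs that share libraries, depth and often sequence, and carry no test. The sign was the same within the pair in both lines in 114 pairs and opposite in both lines in 25. In 38 pairs all 4 changes were positive and in 59 all were negative. Among 37 pairs whose antisense gene changed at least 2-fold in BM1, the partner had the same sign in 33, and in LM2 this held for 18 of 19. No like counts for other pairs are given here.

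**Figure D3:**
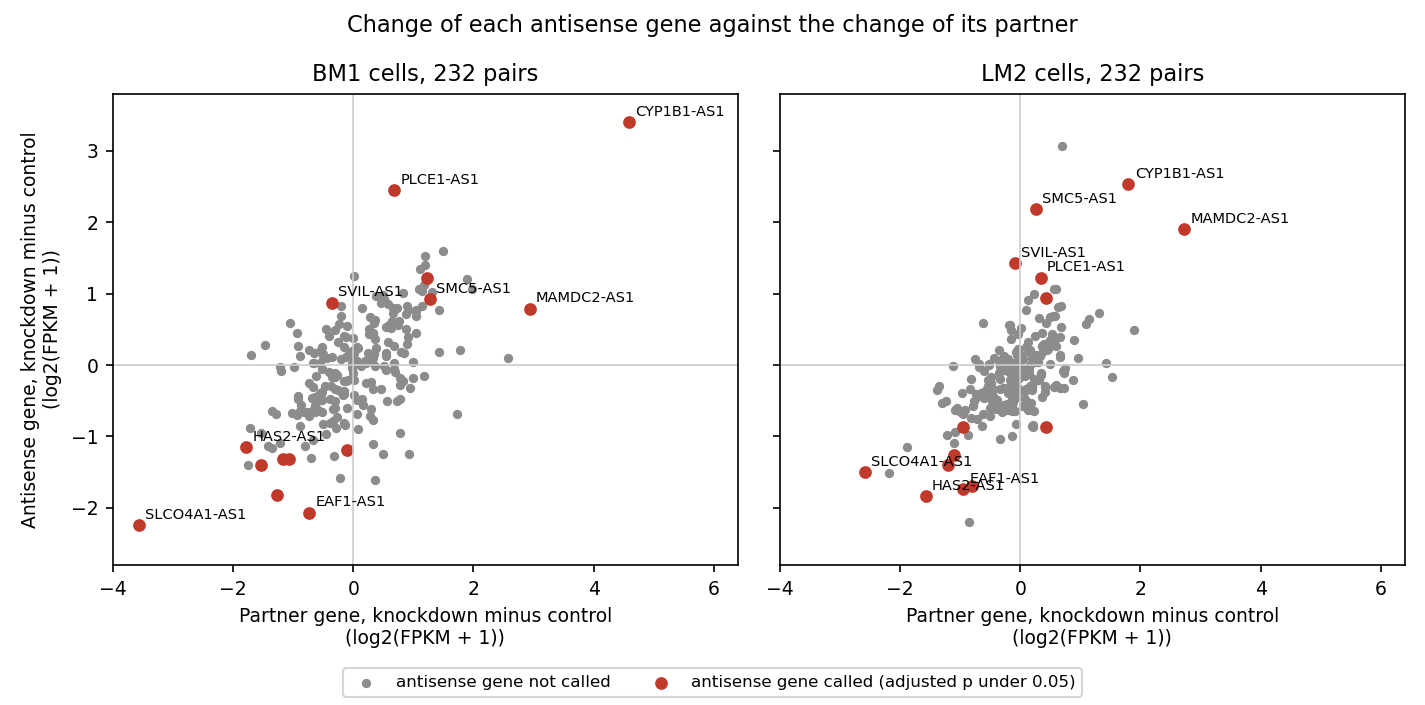
Knockdown minus control on the log2(FPKM + 1) scale of each antisense gene (vertical) against its partner (horizontal) in BM1 and LM2, 1 point per pair for 232 pairs, with called antisense genes in red. Most points lie in the quadrants where both genes have the same sign (69.0% in BM1 and 69.4% in LM2). The share was 69.1% and 62.8% for other overlapping opposite-strand pairs of tested genes. SVIL-AS1 lies above 0 with its partner below 0 in both lines.

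The relation differed with the arrangement of the pair. It was closest for antisense genes inside their partner (r of 0.77 in BM1 and 0.79 in LM2 over 53 pairs). It was 0.60 and 0.56 for pairs that overlap at their ends, and 0.64 and 0.64 for pairs that overlap at their starts. For the 11 antisense genes that enclose their partner it was 0.12 and 0.44. Pairs with a shared promoter region had 0.51 and 0.45 over 76 pairs, against 0.66 and 0.67 over the 156 without one. Where gene bodies did not overlap, r was 0.50 and 0.42 over 33 pairs, and where exons shared no base it was 0.41 and 0.41 over 45 pairs, against 0.66 and 0.65 over the 184 pairs with shared exonic bases. For the antisense genes and the nearest other tested gene that does not overlap them, r was 0.23 and 0.13 over 232 genes. With other tested genes that overlap them on the opposite strand, r was 0.49 and 0.49 over 64 pairs. The difference between these values was not tested.

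Other overlapping genes on opposite strands gave lower or like values of Pearson's r. Over 2831 such pairs of tested genes r was 0.49 in BM1 and 0.34 in LM2. It was 0.61 and 0.48 over the 1230 pairs with 1 protein-coding gene, and 0.37 and 0.20 over the 1505 pairs with both protein-coding. In the 1230 pairs Spearman's value was 0.61 and 0.50, and the sign was the same in 74.6% and 68.8%. Both measures were above those of the antisense pairs in BM1 and below them in LM2.

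**Figure D4:**
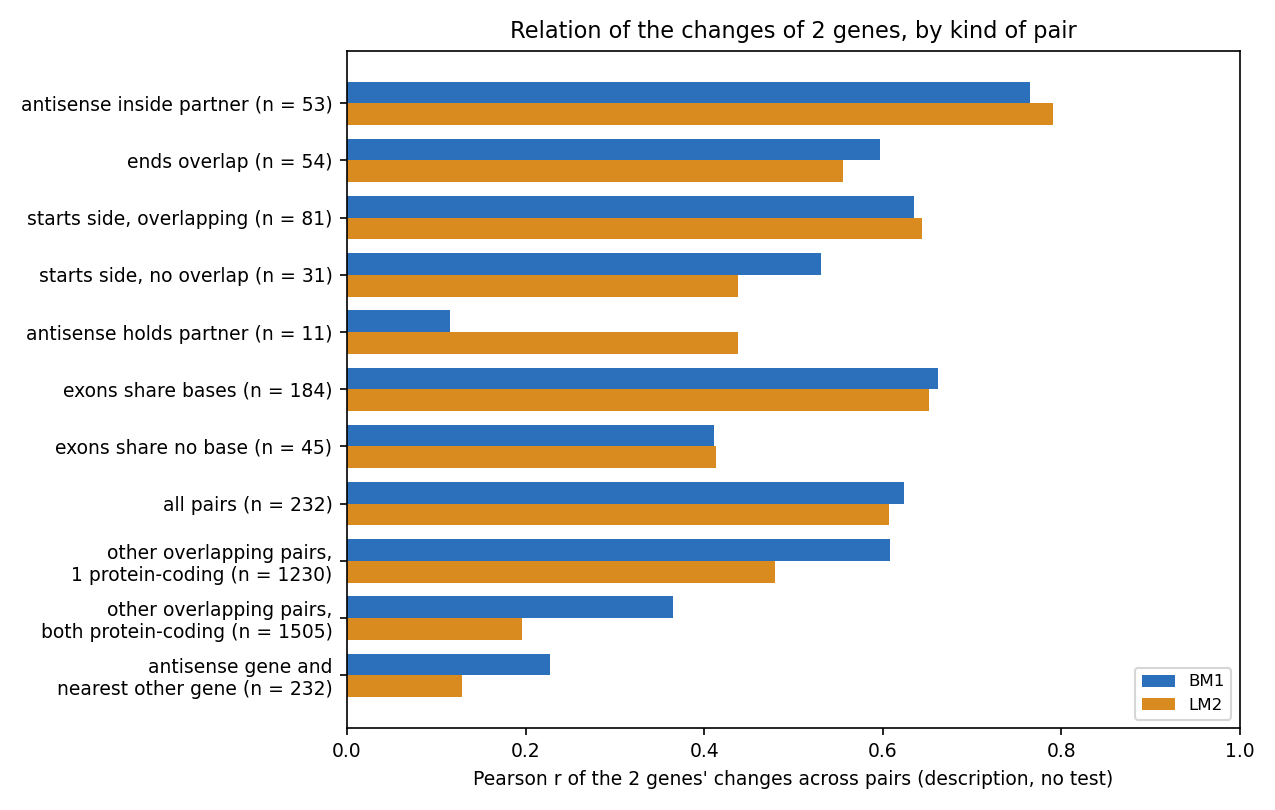
Pearson r between the knockdown changes of the 2 genes of a pair, by kind of pair, in BM1 (blue) and LM2 (orange), with the number of pairs in brackets and bars from 0. The bars are longest for antisense genes inside their partner (0.77 and 0.79) and short for the nearest other gene (0.23 and 0.13).

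By calls, 2 pairs were called higher in both genes (CYP1B1 and MAMDC2) and 5 lower in both (SLCO4A1, HAS2, LOXL1, H1FX and ARAP1). In 4 pairs the antisense gene was called higher and in 3 lower while the partner was not called. In 13 pairs the partner was called, 5 higher and 8 lower, and the antisense gene was not. Among these is ARAP1 with ARAP1-AS2, so ARAP1 counts here and also above with ARAP1-AS1. No pair was called in opposite directions. Like counts of calls for other overlapping pairs are not given. The widest separations among the 25 pairs that moved apart were those of SVIL-AS1 and of 1 of the 2 entries of DHRS4-AS1. That entry, which lies on the strand of DHRS4 and so is not antisense to it, changed by -1.11 in BM1 and -0.87 in LM2. The entry on the opposite strand changed by -0.77 and -0.84. DHRS4, an oxidoreductase gene with near-identical neighbouring copies that make its values uncertain, changed by 0.33 and 0.21. RAB11B-AS1 (0.82 and 0.58) stood beside RAB11B (-0.20 and -0.63), and TPT1-AS1 (0.58 and 0.01) beside TPT1 (-1.06 and -0.52). Apart from SVIL-AS1 none of these was called.

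The antisense gene with the highest level was VIM-AS1. It overlaps the start of VIM, the gene of the intermediate filament vimentin, and was listed at 1309 FPKM in BM1 control, 822 in BM1 knockdown, 1535 in LM2 control and 995 in LM2 knockdown. Both controls were above both knockdowns, while VIM was lower in the BM1 knockdown only (2354, 1160, 1575 and 1795 FPKM). LRRC75A-AS1 was next, at 315, 210, 323 and 227 FPKM, above LRRC75A at 48.2, 30.8, 56.5 and 40.6. PCBP1-AS1 followed at 135, 122, 77.1 and 55.0, then PXN-AS1 at 162, 73.8, 83.4 and 66.8, and MIF-AS1 at 78.3, 55.4, 86.8 and 57.9. The means of PCBP1-AS1 (97.3) and PXN-AS1 (96.6) differed by less than the range over libraries. In each of these 5 genes both knockdowns were below their own control, with limma adjusted p of 0.157 to 0.485.

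Among well-studied antisense RNAs, 8 more had no call. OIP5-AS1, known as cyrano and for its microRNA sites, was listed at 19.1 FPKM in BM1 control, 21.6 in BM1 knockdown, 21.3 in LM2 control and 31.0 in LM2 knockdown. FGD5-AS1, whose partner was not listed, was at 44.5, 47.9, 59.3 and 50.5. ZEB1-AS1 was at 2.18, 2.22, 1.61 and 1.16, beside ZEB1, a transcription factor of the epithelial-mesenchymal transition, at 4.05, 7.05, 7.48 and 11.9. MCM3AP-AS1 (14.5, 13.3, 14.2 and 13.7 FPKM) and NNT-AS1 (4.34, 5.39, 4.62 and 3.42) spanned narrow ranges. EPB41L4A-AS1 was at 2.95, 2.48, 3.59 and 2.58, GAS6-AS2 at 5.82, 3.43, 2.67 and 1.90, and THAP9-AS1 at 5.45, 12.5, 14.6 and 12.4. Their limma adjusted p ran from 0.284 to 0.939.

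The 2 lines themselves differed in 18 antisense genes, 9 higher and 9 lower in LM2 than in BM1, against a background of 4.35% of all genes tested (2.31% higher and 2.04% lower). These calls, the named ones below among them, became 0 without the minimum on the mean, without the term for treatment and without any 1 library, and their number was 9 and 3 with a pseudocount of 0.1 and with quantile normalization. Over all genes tested, 1.55% were called between lines with a pseudocount of 0.1 and 0.747% with quantile normalization. PAPPA-AS1 was the most raised in LM2. It lies wholly inside PAPPA, which encodes a protease that cleaves IGF-binding proteins, and all its exon bases fall in PAPPA exons. PAPPA-AS1 was listed at 0.525 FPKM in BM1 control, 0.535 in BM1 knockdown, 6.99 in LM2 control and 11.9 in LM2 knockdown, and both LM2 libraries exceeded both BM1 libraries (2.73 ± 0.28 SE, limma adjusted p of 0.00146). PAPPA had 0.414, 0.390, 6.85 and 10.4 FPKM (adjusted p of 0.00127). SMC5-AS1, MAMDC2-AS1 and CYP1B1-AS1 were also higher in LM2, by 2.05, 1.83 and 1.73 on the log2 scale. PAPPA-AS1, SMC5-AS1 and MAMDC2-AS1 met the minimum on the mean only through LM2, so their order of lines is no separate support.

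Lower in LM2 were IGFBP7-AS1, AFAP1-AS1, SOCS2-AS1 and MAGI2-AS3. IGFBP7-AS1 was listed at 3.19 FPKM in BM1 control, 7.77 in BM1 knockdown, 0.347 in LM2 control and 0.0688 in LM2 knockdown. Its partner, the gene of a secreted IGF-binding protein, had the reverse order of lines, at 61.6, 132, 184 and 205 FPKM, though it was not called (limma adjusted p of 0.0789). AFAP1-AS1 was at 7.04, 9.71, 1.34 and 1.20 beside AFAP1, an actin filament protein gene, at 21.6, 16.1, 25.8 and 23.4. SOCS2-AS1 was at 3.72, 4.48, 0.568 and 0.240 beside SOCS2, a suppressor of cytokine signalling, at 12.6, 45.5, 10.6 and 5.48. MAGI2-AS3 was at 1.61, 2.86, 0.0367 and 0.278. In all 4 antisense genes both BM1 libraries lay above both LM2 libraries, with limma adjusted p of 0.00513 to 0.0172. Of these, IGFBP7-AS1, SOCS2-AS1 and MAGI2-AS3 met the minimum on the mean only through BM1, as did TP73-AS1. For such genes the order of lines is no separate support. TP73-AS1 was called lower in LM2 too (3.91, 2.55, 1.33 and 0.0910 FPKM, limma adjusted p of 0.0279), while TP73 was at 0.938, 0.321, 2.95 and 0.835. Over all 232 pairs the line differences of antisense gene and partner had an r of 0.65. Here r was 0.72 over the 33 pairs whose gene bodies did not overlap, against 0.65 where they did. It was 0.64 where exons shared no base, against 0.66 where they did. These differences were not tested.

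Genes of machinery that limits antisense RNA were examined as lists. The RNA exosome degrades nuclear RNA with the help of adaptor complexes, and Integrator ends transcription of many short RNAs. Of 24 exosome and adaptor genes tested, 0 were called by limma (4 at an unadjusted p under 0.05), where 5.47% of all genes tested were called and 24.9% had an unadjusted p under 0.05, with median changes of 0.07 in BM1 and -0.08 in LM2. Of 14 Integrator genes, 0 were called by limma (2 at an unadjusted p under 0.05), with medians of 0.03 and -0.01. Among 8 genes named -AS without a digit or -IT with a digit, BDNF-AS was called higher. BDNF-AS was listed at 1.26 FPKM in BM1 control, 4.69 in BM1 knockdown, 3.19 in LM2 control and 11.3 in LM2 knockdown (1.44 on average, limma adjusted p of 0.0201), and both knockdowns were above both controls.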

How the data were processed

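RNA of 4 libraries (BM1 and LM2 cells, control and hnRNPM knockdown, 1 each) was measured by RNA sequencing. The authors deposited 1 table of FPKM values. The submitters' processing notes name STAR 2.5.3a, Cuffdiff 2.2.1 and GRCh37, with no roles or strand setting. No 0 was listed, and 40 rows of 3 repeated gene IDs were left out, which left 20329 genes. The antisense genes and the lists were chosen with earlier results of these data known.

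Genes with a mean of at least 1 FPKM (13928) were analysed as log2(FPKM + 1), which understates the change of low genes, in limma 3.58.1 (R 4.3.3) with terms for cell line and treatment and two-sided p-values adjusted by Benjamini-Hochberg. The script was tested on simulated data. Between 36.1% and 44.1% of low products of FPKM and length lay within 0.02 of whole multiples of a step, too few for a count test. Exons came from GENCODE 29 by gene ID, and promoter windows from RefSeq (GRCh38.p14); no coordinates were converted. Named genes were all called members, the largest rises, falls, opposite changes and line differences, the highest levels, those next to the minimum, a set of well-studied antisense RNAs, and their partners. The pairs that moved apart, TP73-AS1 in the contrast of lines, and BDNF-AS were named after their values were seen. Alternatives were other pseudocounts, filters and scalings, fits without the line term or 1 library, and subsets of pairs; the subsets by exon overlap and by 1 pair per partner were chosen after seeing the data.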

Additional observations from a re-analysis of the deposited data

Results flagged for a closer look

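Among the named genes, 23 had knockdown changes of opposite sign in the 2 lines. Each line has 1 library per treatment, so the difference between lines was not tested. Values below are knockdown minus control on the log2(FPKM + 1) scale, BM1 first and LM2 next. The BM1 change was positive and the LM2 change negative in AFAP1-AS1 (0.41 and -0.092), EPB41L4A (0.77 and -0.0053), FGD5-AS1 (0.10 and -0.23), IGFBP7-AS1 (1.07 and -0.33), MYCBP2-AS1 (0.79 and -1.04), MYCBP2 (0.66 and -0.34), NNT-AS1 (0.26 and -0.35), NNT (0.070 and -0.12), SMARCA5-AS1 (1.59 and -0.21), SOCS2-AS1 (0.21 and -0.34), SOCS2 (1.77 and -0.84), TAF1A-AS1 (0.86 and -0.85), THAP9-AS1 (1.06 and -0.22), TMPO (0.018 and -0.85) and ZEB1-AS1 (0.022 and -0.28). The reverse held in A1BG-AS1 (-0.95 and 0.77), HHIP (-1.26 and 0.43), MCM3AP (-0.30 and 0.13), PAPPA (-0.026 and 0.54), PXN (-0.81 and 0.42), SEMA3F-AS1 (-0.90 and 0.66), VIM (-1.02 and 0.19) and ZSWIM8-AS1 (-1.61 and 0.045). Both genes of the pair had opposite signs for MYCBP2, NNT and SOCS2. Opposite signs were seen in 30.9% of all genes tested.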

How the results depend on the processing

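Each knockdown library has its own control from the same cell line, and this pairing is the replicate block of the limma fit. With no replicate block, limma called 0 antisense genes, 0 partners and 0 antisense genes between lines (33, 29 and 32 at an unadjusted p under 0.05). Of all genes tested, 11.1% had an unadjusted p under 0.05 in this knockdown fit and 9.57% in this fit of lines. Leaving out 1 library in turn drops the term of the other factor and assumes that a lone library varies like the others. No call was left in any of the 3 counts. A pseudocount of 0.1 gave 0, 0 and 9 (69, 52 and 66 at an unadjusted p under 0.05), no filter on low values 0, 0 and 0 (67, 61 and 58), and quantile normalization 0, 0 and 3 (59, 62 and 61). Over all genes these fits called 0.194%, 0% and 0% for knockdown, and 1.55%, 0% and 0.747% between lines. The unadjusted shares over all genes were 21.8%, 18.4% and 23.4% for knockdown, and 19.6%, 17.9% and 21.3% between lines. A pseudocount of 0.5, a filter at 0.5 FPKM and median-ratio size factors gave 13, 13 and 12 called antisense genes. Of all genes in the same fits, 4.40%, 4.46% and 5.08% were called. Of the 23 called named genes, none changed sign in any setting. The cause of the lost calls was not tested.

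At least 2-fold in BM1 were 73 antisense genes with a pseudocount of 0.1, 62 with 0.5, and 105 at 1.5-fold, and in LM2 48, 34 and 70. In BM1 these are 27.8%, 23.6% and 39.9% of the antisense genes, beside 23.0%, 19.4% and 37.8% of all genes tested, and in LM2 18.3%, 12.9% and 26.6% beside 13.1%, 10.4% and 24.5%. The median change moved to -0.12 in BM1 with quantile normalization, and in LM2 to -0.20 with a pseudocount of 0.1 and -0.054 with quantile normalization. The relation of antisense gene and partner moved to 0.50 in BM1 and 0.42 in LM2 where gene bodies did not overlap, to 0.41 and 0.41 where exons shared no base, and to 0.49 in BM1 where the antisense exons shared no base with any opposite-strand gene. The BM1 share of same-sign pairs moved to 62.2% and 60.6% in these last 2 subsets.

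Single uncalled genes whose average turned sign were IGFBP7-AS1 (-0.072 with a pseudocount of 0.1), TAF1A-AS1 (-0.049 with 0.1, -0.0086 with 0.5 and -0.0039 with quantile normalization) and OIP5 (-0.018 with quantile normalization). Without 1 library, the lowest and highest averages of the 30 named genes that turned were A1BG-AS1 -0.82 to 0.64, AFAP1-AS1 -0.98 to 1.30, FGD5-AS1 -0.26 to 0.14, HHIP -1.40 to 0.57, IGFBP7 -0.16 to 1.40, IGFBP7-AS1 -1.15 to 1.88, MAGI2-AS3 -0.36 to 1.23, MCM3AP -0.36 to 0.19, MYCBP2 -0.25 to 0.57, MYCBP2-AS1 -0.59 to 0.35, NNT -0.14 to 0.092, NNT-AS1 -0.31 to 0.22, OIP5 -0.014 to 0.034, PAPPA -1.26 to 1.78, PAPPA-AS1 -1.18 to 1.88, PAX8 -0.95 to 0.035, PCBP1 -0.91 to 0.17, PCBP1-AS1 -0.88 to 0.25, PLCE1 -0.044 to 1.06, PXN -0.84 to 0.45, SEMA3F-AS1 -0.54 to 0.30, SMC5 -0.16 to 1.69, SOCS2 -0.96 to 1.89, SOCS2-AS1 -1.13 to 1.01, SVIL -0.75 to 0.31, TAF1A-AS1 -0.48 to 0.49, THAP9-AS1 -0.22 to 1.06, TMPO -0.95 to 0.12, TP73-AS1 -1.63 to 0.071, ZEB1-AS1 -0.42 to 0.16. Values well under 1 FPKM rest on few fragments, so ratios of such genes are not precise at this depth.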
